A study of Mus musculus with 9 samples.

Results

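Mouse retinal organoids lacking Islet-1 were compared with organoids lacking Bhlhb4, a gene now named Bhlhe23, at differentiation days 10, 16 and 23 (DD10, DD16 and DD23). The comparison took the 3 samples titled as Islet-1 knockout (Isl1KO) and the 3 titled as Bhlhb4 knockout (B4KO), paired by day, which are 6 of the 9 samples of the study. The remaining 3 samples are wild type (WT, also called NCT) at the same days. All lines were grown from mouse ES or iPS cells as floating aggregates, the knockouts having been made so that fewer bipolar cells form, and RNA of 5 pooled organoids per sample was hybridised to single-colour Agilent arrays. The allele, the parental line and the number of clones of each knockout are not given in the sources used here.

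Islet-1 is a LIM homeodomain transcription factor. In the retina it is needed for the differentiation and survival of ganglion cells, for cholinergic (starburst) amacrine cells and for bipolar cells. Bhlhe23 is a basic helix-loop-helix repressor needed for rod bipolar cells to mature and survive. Ganglion cells are the first neurons of the retina to be born and bipolar cells are among the last, and Islet-1 is needed for both.

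Each line was sampled once per day. The 3 days of a line are therefore not replicates of a condition, and the spread behind each test is the departure from a constant difference between lines over the days. The 3 B4KO arrays were on 1 slide, and the Isl1KO and WT arrays were on another slide scanned separately, per the file headers. In the contrast of the knockouts, line and slide cannot be told apart. WT, a line on the same slide as Isl1KO, is therefore given beside many of the results, though not all. On the 6 knockout arrays, 58.2% to 60.5% of gene spots were well above background in B4KO and 64.2% to 67.8% in Isl1KO, and no spot was saturated. Of 10 added control transcripts, 8 were well above background on all 6 arrays. The 7 brighter ones differed by -0.14 to 0.06 on the log2 scale, and the dimmest was 0.78 higher on the Isl1KO arrays and 0.77 higher on the WT arrays than on the B4KO arrays. Defining genes of the labelled tissue were present. Rax, an early eye field factor, had a level of 5.28 to 6.30 on the 6 arrays, and Crx, a photoreceptor factor, which stood at 6.69 in Isl1KO and 6.63 in B4KO at DD23. A level is the log2 intensity minus that of the array's 75th percentile, so that 0 is the 75th percentile, and a difference is Isl1KO minus B4KO on that scale.

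The first 30 bases of the probes on which the main results turn are given here, 5′ to 3′ in the sense of the transcript, with the array design's positions of the whole probe of 60 bases in build mm9. Isl1 had a pair of probes on the minus strand of chromosome 13, and the upstream one (chr13:117099604-117099663) and the downstream one (chr13:117088774-117088833) gave different answers. Bhlhe23 had 1 probe (chr2:180509639-180509698, minus strand). Meg3 (chr12:110783470-110783529 and chr12:110809678-110809737, plus strand) and Cdkn1c (chr7:150644297-150644356, minus strand) carried the 2 largest differences among the named genes, and Nefl (chr14:68705725-68705784 and chr14:68706866-68706925, plus strand) the largest fall with agreeing probes.
Isl1 upstream: atttcactgtggacattactccctcttaca
Isl1 downstream: cccccaaagatgtgtatagttattggttaa
Bhlhe23: aggcccttttgtatttgcaaaatgacgtgt
Meg3 first: ccttaaacaagtcatttagcttccaggttt
Meg3 second: ttgagtagagagacccacctactgactgat
Cdkn1c: attgctcttaaacttggtgaccagacagtc
Nefl first: gcatggtccatgcttatgagttcaggatct
Nefl second: actgaagtgatctgcaattgaagtctcttt

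The targeted genes were read first. On the upstream probe, Isl1 had levels of -1.24, -0.44 and -1.63 in Isl1KO at DD10, DD16 and DD23, and of 0.92, 1.19 and -0.05 in B4KO. All 3 Isl1KO samples lay below all 3 B4KO samples. The difference was -1.79 ± 0.31 (SE), a 3.46-fold lower signal (adjusted p = 0.0064, limma with Benjamini-Hochberg adjustment over all genes). WT stood at -0.60, 1.45 and -0.05, above Isl1KO on each day. On the downstream probe, which was also well above background on every array, Isl1KO was at -0.88, 0.10 and -0.92 and B4KO at 0.04, 0.23 and -0.94. Signal from this end of the transcript was thus lower by 0.92 at DD10 and differed by -0.14 and 0.02 on the later days. WT was at -1.25, 0.85 and -0.66 on this probe, below both knockouts at DD10. With the mean of both probes in place of the brighter one, the Isl1 difference was -1.07 (adjusted p = 0.0583). Without DD23 the Isl1 adjusted p was 0.0537.

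Bhlhe23 was close to background. Its probe was well above background on 1 of 3 B4KO arrays, on 2 of 3 Isl1KO arrays and on 3 of 3 WT arrays. Levels were -3.41, -4.88 and -6.64 in B4KO and -2.95, -4.55 and -6.56 in Isl1KO. WT was at -3.20, -2.82 and -4.55. The gene was not tested between the knockouts, since its probe did not pass on all 6 arrays. WT was higher than B4KO on each day, though only slightly at DD10. WT lay on the other slide, where the dimmest detected control transcript was also 0.77 higher than on the B4KO arrays. At this signal the probe therefore cannot check the B4KO label.

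Of 37257 genes on the array, 19260 had a probe well above background on all 6 knockout arrays and were tested. The fit called 4187 of them at an adjusted p under 0.05 (21.7% of the genes tested), 3056 higher in Isl1KO (15.9%) and 1131 lower (5.87%). Under cyclic loess by brightness the split was 2736 higher and 1711 lower. All 4187 had the same sign at all 3 days. A difference of 2-fold or more was reached by 867 of the genes called higher and by 18 of those called lower. The median difference over all tested genes was -0.05, with quartiles at -0.19 and 0.17. The lower calls depended most on DD16 and DD23. Without DD16, 2191 genes were called higher and 132 lower, and without DD23, 2383 and 221. Without DD10 the counts were 2495 and 619. Without the Isl1KO sample at DD16 alone, 2791 genes were called.

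Dim probes leaned to the Isl1KO side. In the second dimmest of 20 brightness bins the median difference was 0.20 and 35.4% of genes were called, 32.3% of all its genes being higher in Isl1KO. In the brightest bin the median difference was -0.08 and 16.1% were called, 10.9% being higher. Over the 20 bins the median difference ranged from -0.09 to 0.20. Among genes above the median brightness of passing probes, 2444 were called, 1294 higher and 1150 lower.

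**Figure D1:**
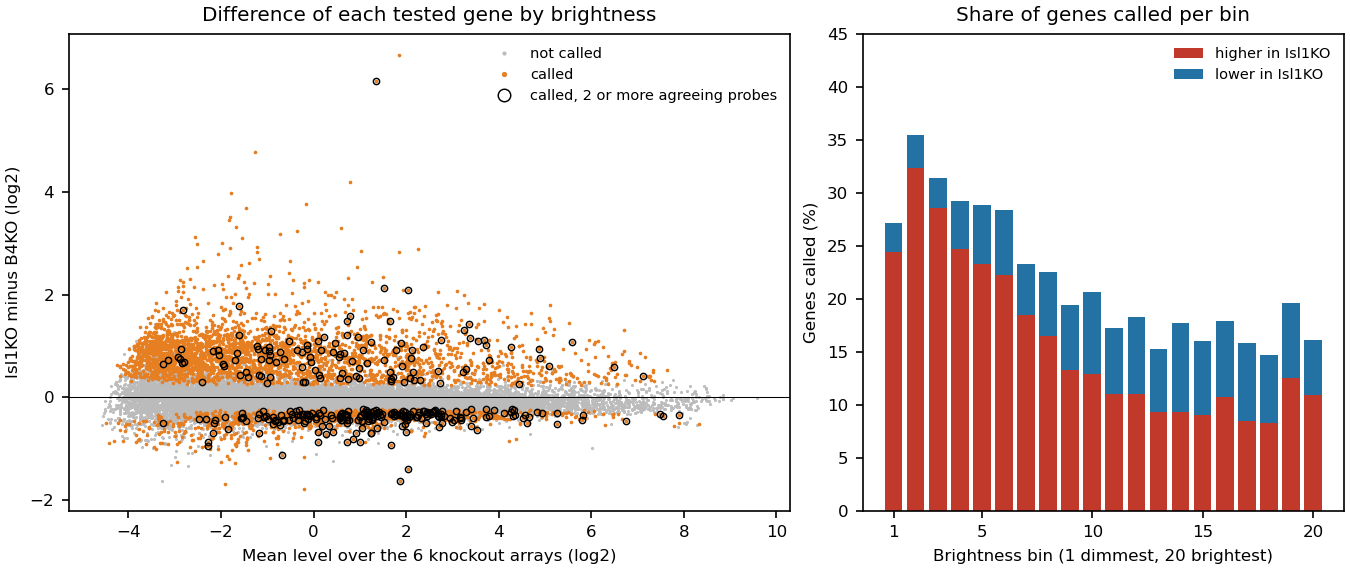
Left, the difference of each of the 19260 tested genes (log2, vertical) against its mean level over the 6 knockout arrays (log2, horizontal), with called genes in orange and called genes with agreeing probes circled. Right, the percentage of genes called in each of 20 brightness bins, which is 35.4% in bin 2 and 16.1% in bin 20, with most dim calls higher in Isl1KO.

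Agreement between probes changed the balance of the calls. Of the 6765 tested genes with 2 or more passing probes, 926 were called, 463 in each direction. Agreeing probes, that is a further passing probe that does not overlap the tested one and has its sign on all 3 days, with no passing probe of opposite mean sign, were found for 112 of the 463 higher calls (24.2%) and 212 of the 463 lower calls (45.8%). Among all 6765 genes, called or not, the share was 17.6%. The 324 called genes with agreeing probes are 4.79% of those with 2 or more passing probes. Their count depended on single samples: it was 190 without B4KO at DD23 (112 higher and 78 lower), 187 without Isl1KO at DD16 (117 and 70) and 183 without Isl1KO at DD23 (104 and 79).

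WT lay nearer to Isl1KO than to B4KO in 3831 of the 4187 called genes (91.5%) and in 70.8% of all genes tested. It lay nearer to B4KO in 111 of the genes called higher and 245 of those called lower. Among the 324 genes with agreeing probes the corresponding counts were 10 higher and 29 lower. Nearer means only the smaller of the 2 mean differences, and Isl1KO minus WT was not tested. In some of these genes WT was about midway, as in Vps35l, with -0.14 for Isl1KO minus WT and -0.12 for WT minus B4KO.

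The largest falls with agreeing probes were in neurofilament genes. Nefl, which encodes the light neurofilament chain of large axons, had levels of 0.80, 1.36 and 1.02 in Isl1KO and of 2.57, 3.48 and 2.04 in B4KO. WT was at 1.51, 3.45 and 2.58. Each Isl1KO sample was below every B4KO and WT sample, and the rise at DD16 seen in both other lines was small in Isl1KO. The difference was -1.63 ± 0.31 (SE; 3.1-fold lower, adjusted p = 0.00958), and the other Nefl probe gave -1.21. Without DD16 the Nefl adjusted p was 0.0945.

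Nefm, the medium neurofilament chain, had levels of 1.23, 1.55 and 1.26 in Isl1KO, of 3.02, 3.52 and 1.69 in B4KO and of 1.94, 3.54 and 1.72 in WT. Its difference was -1.39 ± 0.35 (SE; adjusted p = 0.0289), largest at DD16 (-1.97) and smallest at DD23 (-0.43), and it was lost without any one of the DD10 or DD16 samples of the knockouts (adjusted p = 0.0915 to 0.104). Rbpms, an RNA-binding protein used as a pan-ganglion-cell marker, had levels of -0.97, -0.82 and -1.94 in Isl1KO, of -0.35, 0.60 and -0.60 in B4KO and of -0.89, 0.55 and -0.85 in WT. All of its 3 passing probes agreed, with mean differences of -0.91, -1.14 and -1.13. The Rbpms difference of the tested probe was -1.13 ± 0.22 (SE; adjusted p = 0.0117), and its adjusted p was 0.0875 without DD16 and 0.117 without DD23.

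Ganglion cell genes as a group moved unevenly. Of 19 listed markers 17 were tested; 3 fell (Nefl, Nefm and Rbpms) and 1 rose (Pou4f1), against 5.87% and 15.9% of all tested genes. The median difference was -0.26, and the daily medians were -0.88, -0.33 and -0.18 at DD10, DD16 and DD23. Because each sample is bulk RNA, fewer cells of a type and less RNA per cell cannot be told apart here or in any list below. Sncg, gamma-synuclein of ganglion cell axons, differed by -1.24 ± 0.37 (SE; adjusted p = 0.0536), and both of its passing probes agreed. Its WT levels were -0.31, 2.07 and 0.25, against -0.17, 1.30 and -1.74 in Isl1KO and 0.94, 2.11 and 0.06 in B4KO. Ebf1, a factor of ganglion cell subtypes, differed by -1.06 ± 0.32 (SE; adjusted p = 0.0599). For the early ganglion cell factor Pou4f2, which acts together with Isl1, the levels were 1.14, 2.20 and -0.89 in Isl1KO and 2.17, 1.60 and -1.44 in B4KO, and the difference was 0.04 ± 0.54 (SE; adjusted p = 0.965). Its WT levels were 0.03, 2.03 and -0.37. Pou4f1 was 0.72 ± 0.15 (SE) higher (adjusted p = 0.0143), with WT 0.82 above B4KO, but its probes disagreed. On the other passing probe Isl1KO was at -1.83, -3.62 and -4.29, B4KO at -1.27, -0.79 and -1.65 and WT at -1.79, -0.81 and -0.97, a mean difference of -2.01. Another Pou4f1 probe, above background on 1 Isl1KO array and on all B4KO and WT arrays, gave -2.28. The mean of the passing pair gave -0.64 (adjusted p = 0.241), and the call of the tested probe was lost without DD10 or DD23 (0.0872 and 0.0614), so the direction of Pou4f1 depends on the probe. Gap43 and Stmn2, general genes of growing axons, differed by -0.09 and 0.08, and neither passed the test.

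**Figure D2:**
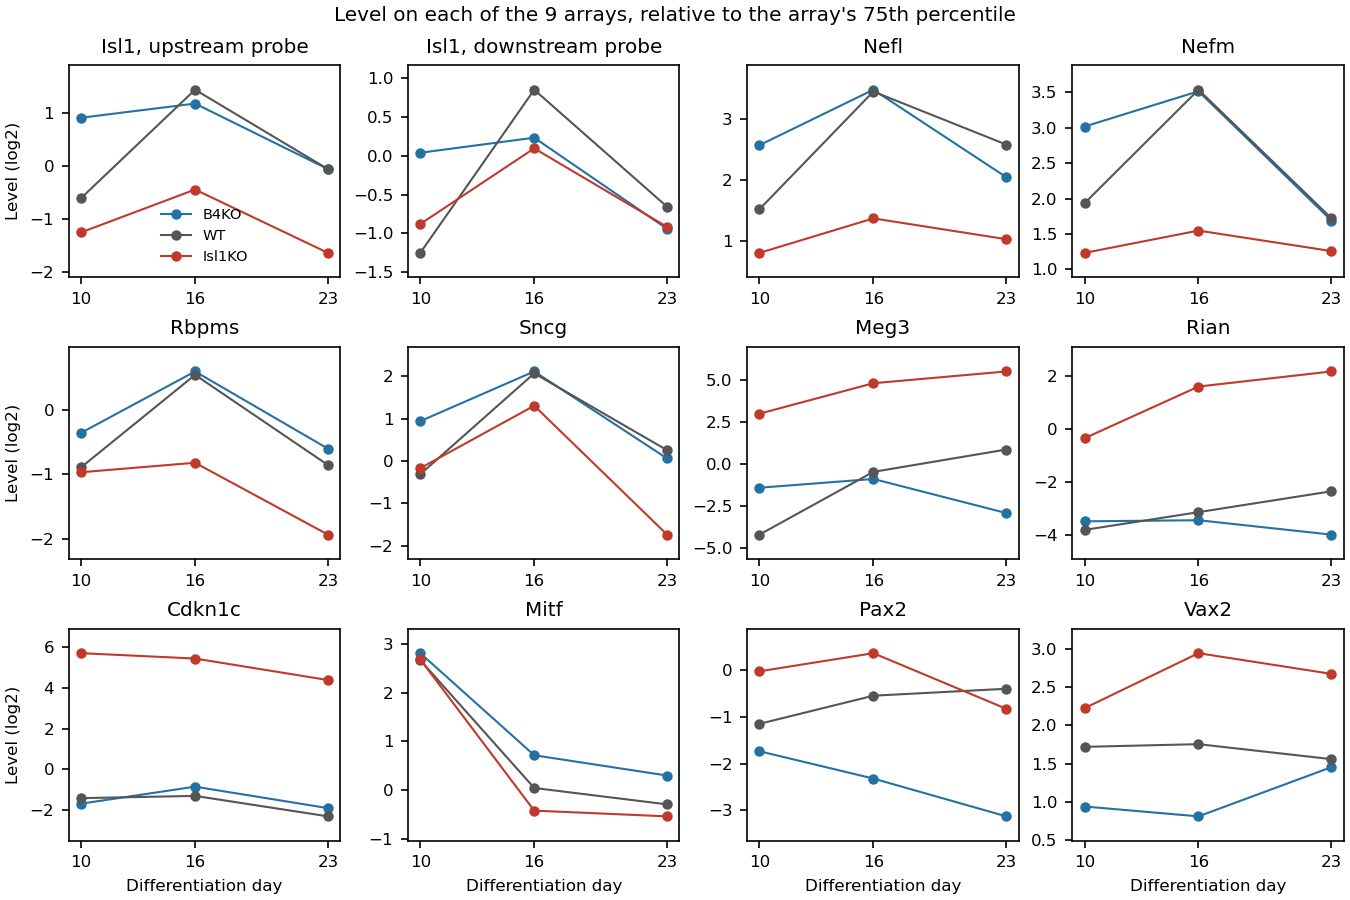
Level of Isl1 on each of its 2 probes and of 10 named genes on each of the 9 arrays (log2 relative to the array's 75th percentile, vertical, a separate scale per panel) against differentiation day (horizontal), with 1 point per sample. Isl1KO lies below both other lines on the upstream Isl1 probe and in Nefl, Nefm and Rbpms, and far above them in Meg3, Rian and Cdkn1c.

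Starburst amacrine cells are the cholinergic neurons of the inner retina. Slc18a3 encodes the vesicular acetylcholine transporter. Its levels were -3.85, -3.40 and -3.81 in Isl1KO, -4.08, -4.22 and -0.12 in B4KO and -3.23, -3.49 and 0.01 in WT. Both other lines were thus high at DD23, where Isl1KO stayed at its earlier level. The mean difference was -0.88 ± 0.83 (SE; adjusted p = 0.489). The departure at DD23 from the mean of the earlier days was -4.22 and did not pass the test. Megf10, a receptor of starburst and horizontal cell mosaics, was at -0.71 in Isl1KO, 0.30 in B4KO and 0.51 in WT at DD23. Of the 7 listed starburst genes 3 were tested and none was called. Slc5a7, the choline transporter, was well above background on at most 1 array of either knockout with each of its probes. Chat, choline acetyltransferase, on its brightest probe was at -2.83, -3.58 and -3.08 in Isl1KO, at -6.35, -4.82 and -3.46 in B4KO, where it was well above background on 1 array, and at -2.97, -3.83 and -1.83 in WT.

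The largest differences of all named genes were in imprinted genes, which are expressed from only the maternal or the paternal copy. Meg3 is a maternally expressed long noncoding RNA. Its levels were 2.99, 4.80 and 5.49 in Isl1KO, -1.40, -0.88 and -2.90 in B4KO and -4.19, -0.46 and 0.86 in WT. Every Isl1KO sample was above every other sample. The difference was 6.16 ± 1.04 (SE; 71.3-fold, adjusted p = 0.00553), and it grew over the days, from 4.39 to 5.68 to 8.40, although the departure at DD23 did not pass its own test (3.36, adjusted p = 0.937). The second passing Meg3 probe gave 5.64. Without DD16 the Meg3 adjusted p was 0.0680.

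Rian, a maternally expressed RNA that hosts small nucleolar RNAs in the same cluster, had levels of -0.36, 1.59 and 2.16 in Isl1KO, of -3.49, -3.45 and -4.00 in B4KO and of -3.82, -3.15 and -2.36 in WT. Its difference was 4.78 ± 0.50 (SE; 27.4-fold, adjusted p = 0.000565). The array held 30 probes between the first Meg3 probe and the last probe of Mirg, the microRNA-containing gene at the other end of the maternally expressed run (chr12:110782745-110987628, mm9, 205 kb). This window was chosen after the values were seen. In Isl1KO 19 of the 30 probes were well above background on all 3 arrays, against 5 in B4KO and 6 in WT. Only 5 of the 30 were well above background on all arrays of both knockouts. On these the mean differences were 6.16 and 5.64 for Meg3, 4.78 for Rian, 3.51 for an unnamed transcript and 1.37 for the probe of AK053394. The corresponding differences of WT minus B4KO were 0.47, 0.66, 0.54, 0.73 and 1.48, so that on the AK053394 probe WT stood as high as Isl1KO. The other 14 probes seen on all 3 Isl1KO arrays were missed on at least 1 B4KO array, 10 of them on every one, and have no measured difference. Dlk1, a paternally expressed gene of the cluster that encodes a Notch-like membrane protein, differed by -0.65 ± 0.21 (SE; adjusted p = 0.0707).

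**Figure D3:**
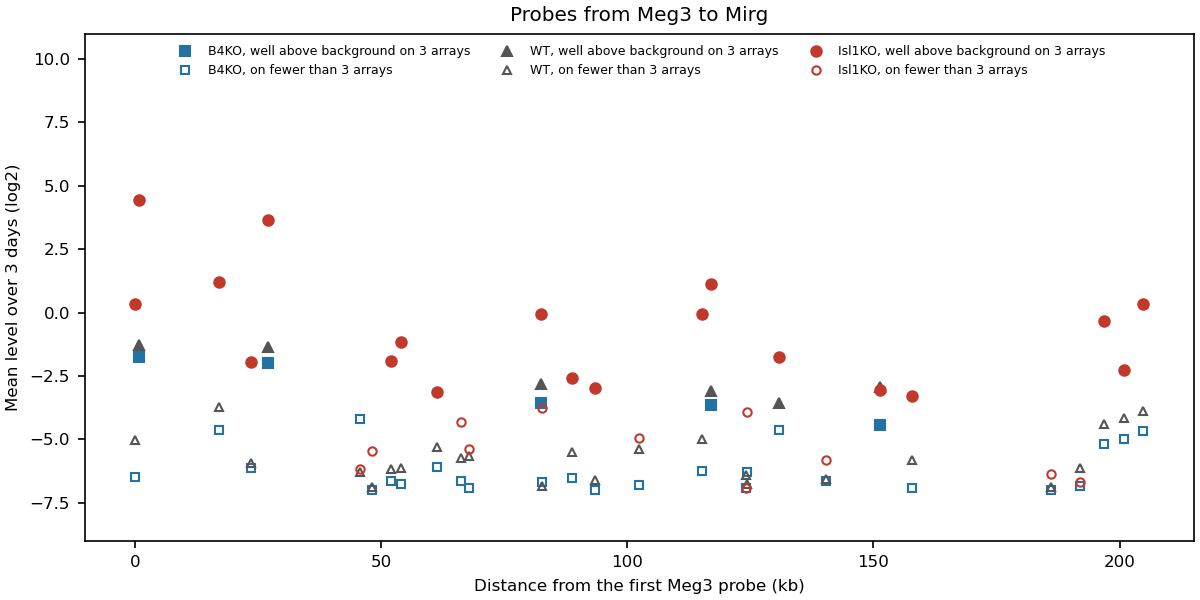
Mean level over the 3 days (log2 relative to the array's 75th percentile, vertical) of each of 30 probes from Meg3 to Mirg in each line against the distance from the first Meg3 probe in kb (horizontal). Filled symbols are probes well above background on all 3 arrays of that line, which holds for 19 probes in Isl1KO, 5 in B4KO and 6 in WT, and levels of open symbols are near background on at least 1 array.

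Cdkn1c (p57), which blocks cyclin-dependent kinases as progenitors leave the cell cycle and is expressed from the maternal copy, had levels of 5.70, 5.44 and 4.38 in Isl1KO, -1.69, -0.85 and -1.91 in B4KO and -1.41, -1.30 and -2.31 in WT. The groups were far apart on every day. The difference was 6.66 ± 0.21 (SE; 101-fold, adjusted p = 2.03e-05), and it rests on 1 probe. H19, a maternally expressed noncoding RNA, was 0.76 ± 0.13 (SE) higher (adjusted p = 0.00665), with a difference of WT minus B4KO of -0.60. Kcnq1ot1, the paternally expressed antisense RNA of the Cdkn1c domain, differed by 0.28, and Igf2, the growth factor beside H19, by 0.48 (adjusted p = 0.12 and 0.126), and neither passed the test.

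Among the 35 listed imprinted genes 29 were tested, of which 4 rose (Cdkn1c, Meg3, Rian and H19) and 5 fell, against 15.9% and 5.87% of all tested genes, and the median difference was 0.12. Nap1l5, a paternally expressed member described below, was seen in Isl1KO and not in B4KO. Those that fell were Grb10, an adaptor of growth factor receptors (-0.93), the amino acid transporter Slc38a4 (-0.68), the splicing factor gene Zrsr1 (-0.65), the translational regulator Impact (-0.57) and Gnas, which encodes the stimulatory G protein (-0.54). Zrsr1 was at -0.24, 0.37 and 1.16 in Isl1KO, at 0.58, 1.10 and 1.57 in B4KO and at 0.61, 1.05 and 1.39 in WT. For Gnas and Slc38a4 the passing probes disagreed, and with their mean the differences were -0.10 and -0.49 (adjusted p = 0.4 and 0.119). Without DD16 the calls of H19, Zrsr1 and Slc38a4 were lost as well (adjusted p = 0.0617, 0.103 and 0.0655). Without DD10 those of H19 and Zrsr1 were also lost (adjusted p = 0.0603 and 0.0501).

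Genes that pattern the axes of the eye changed in both directions. The list held 20 genes, of which 15 were tested, 3 rose and 3 fell, against 15.9% and 5.87% of all tested genes, and the median difference was -0.35. Pax2, a factor of the ventral optic cup and optic stalk, had levels of -0.03, 0.36 and -0.83 in Isl1KO, of -1.74, -2.32 and -3.13 in B4KO and of -1.15, -0.55 and -0.40 in WT. It was 2.23 ± 0.37 (SE) higher in Isl1KO (adjusted p = 0.00532), and WT was between the knockouts at DD10 and DD16 and above both at DD23. Without DD16 the Pax2 adjusted p was 0.0838. Vax2, a ventral homeobox factor, had levels of 2.22, 2.94 and 2.67 in Isl1KO, of 0.94, 0.81 and 1.45 in B4KO and of 1.72, 1.75 and 1.56 in WT. Its difference was 1.54 ± 0.21 (SE; adjusted p = 0.00176).

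The falls in the list included 2 ephrins known from the dorsal retina, Efnb2 (-0.84 ± 0.13 SE, adjusted p = 0.00351) and Efnb1 (-0.36 ± 0.10 SE, adjusted p = 0.0416). The Efnb1 call was lost under cyclic loess (0.0512), without DD16 (0.238) and without DD23 (0.167). Aldh1a1, the dorsal enzyme of retinoic acid synthesis, had levels of 7.82, 5.39 and 3.38 in Isl1KO, of 8.07, 6.16 and 5.30 in B4KO and of 7.34, 6.01 and 3.96 in WT, and its difference was -0.98 ± 0.31 (SE; adjusted p = 0.07). Tbx5, a dorsal T-box factor, differed by -0.63 ± 0.19 (SE; adjusted p = 0.0574). The difference of WT minus B4KO was -0.76 for Efnb2, -0.74 for Aldh1a1 and -0.62 for Tbx5, so that WT was nearer to Isl1KO in each. Nr2f2, an orphan nuclear receptor of the axis list, was called lower (-0.42, adjusted p = 0.0227), and the Nr2f2 call was lost without any one of the days (0.0716 to 0.110) and with no filter on dim probes (0.0540).

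Pigment cell genes included more falls than rises. Of 16 listed genes 13 were tested and 11 had negative differences, 3 fell and 1 rose, against 5.87% and 15.9% of all tested genes, and the median was -0.39 (-0.10, -0.37 and -0.68 on the 3 days). Mitf, the master factor of pigment cells, had levels of 2.68, -0.42 and -0.54 in Isl1KO, of 2.81, 0.72 and 0.30 in B4KO and of 2.66, 0.05 and -0.29 in WT. The samples were alike at DD10 and apart later. The Mitf difference was -0.70 ± 0.17 (SE; adjusted p = 0.0292), and all 4 of its passing probes had negative mean differences, of which 3 were negative on each day. Tyr, tyrosinase, was 0.39 lower (difference -0.39 ± 0.10 SE, adjusted p = 0.0278), and WT was above B4KO by 0.17. With the mean of its probes Tyr differed by -0.72. Dct, another melanin enzyme, differed by -0.58 ± 0.11 (SE; adjusted p = 0.0112), but its passing probes disagreed and their mean gave 0.15. The gene that rose, Otx1, marks the ciliary margin as well as the pigment epithelium (0.66 ± 0.15 SE, adjusted p = 0.0224, WT 0.69 above B4KO). Each of the calls for Mitf, Tyr, Dct and Otx1 was lost without DD16 and without DD23 (adjusted p from 0.1 to 0.203), and also without any single knockout sample of those days (0.0542 to 0.119). Rpe65, the visual cycle isomerase of mature pigment epithelium, was not well above background on any array.

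Cell cycle genes had mostly negative differences, few of which passed the test. Of 29 listed genes 28 were tested, 27 had negative differences and 2 fell (5.87% of all tested genes fell). The median was -0.38, and on the single days it was -0.21, 0.02 and -0.87. Pcna, the sliding clamp of DNA replication, had levels of 4.03, 3.50 and 2.14 in Isl1KO, of 4.59, 3.91 and 2.93 in B4KO and of 4.04, 3.61 and 2.43 in WT. Its difference was -0.58 ± 0.09 (SE; adjusted p = 0.0042), and WT was nearer to Isl1KO. Mcm4, of the replicative helicase, differed by -0.49 ± 0.13 (SE; adjusted p = 0.0387), a call of Mcm4 lost under cyclic loess (0.0518), without DD16 (0.156) and without DD23 (0.153). Mki67, a marker of cycling cells, was at 4.37, 4.40 and 2.49 in Isl1KO and at 4.88, 4.35 and 3.52 in B4KO, and its difference of -0.49 ± 0.18 (SE) did not pass (adjusted p = 0.103). Mcm10 and Gen1, a replication factor and a resolvase of DNA junctions, were among the 12 largest falls with agreeing probes (-0.87 and -0.96). For both, WT minus B4KO was -0.69, so that WT was nearer to Isl1KO. The other passing probe of Gen1 gave only -0.13, and without DD16 both calls were lost (adjusted p = 0.0631 for Mcm10 and 0.106 for Gen1). The signal summed over the 28 genes fell with time in every line, from 320 to 57.7 in Isl1KO and from 376 to 108 in B4KO between DD10 and DD23, in units of the array's 75th percentile.

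Progenitor genes showed 2 calls in each list, where 21.7% of all tested genes were called. Of 15 retinal progenitor genes, all tested, Lhx2, an eye field factor, was called lower (-0.41 ± 0.09 SE, adjusted p = 0.0168) and the Notch effector Hes1 higher (0.68 ± 0.18 SE, adjusted p = 0.0396), and the median was -0.19. Of the 16 genes of neurogenic progenitors 15 were tested and 2 fell, against 5.87% of all tested genes. Among the falls was the basic helix-loop-helix factor Hes6 (-0.50 ± 0.11 SE, adjusted p = 0.0194). WT was nearer to Isl1KO in Lhx2, Hes1 and Hes6. Leaving out single days or samples ended each of these 3 calls, with adjusted p reaching 0.136 for Lhx2, 0.19 for Hes1 and 0.121 for Hes6. Atoh7, which makes progenitors competent to form ganglion cells, was at 4.47, 5.28 and 0.22 in Isl1KO and at 5.52, 5.08 and 1.22 in B4KO (adjusted p = 0.276). Its WT levels were 3.55, 5.18 and 0.54.

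Bipolar cells are the type that both knockouts were designed to reduce. Of 18 genes listed for rod and ON bipolar cells 11 were tested, and Isl1 itself was the only call, against 21.7% of all tested genes. The median over the list was -0.17. Pcp2, a Purkinje and ON bipolar cell protein, had levels of -1.89, 2.38 and 4.17 in Isl1KO and of -2.78, 3.20 and 4.38 in B4KO (-0.04 ± 0.30 SE, adjusted p = 0.935). Gng13, the G protein subunit of the ON bipolar cascade, was at -2.79, -0.28 and 2.99 in Isl1KO and at -2.65, 0.12 and 2.95 in B4KO (-0.17 ± 0.14 SE, adjusted p = 0.454). Trpm1, the cation channel of that cascade and also a pigment cell gene, was at 4.44, 1.95 and 0.14 in Isl1KO, at 4.23, 2.44 and 1.37 in B4KO and at 4.71, 2.51 and 1.28 in WT (adjusted p = 0.181). These are levels of the brightest of its 6 passing probes, which disagreed. Another passing Trpm1 probe gave differences of 1.57, 1.23 and 1.69 on the 3 days, while the rest had negative mean differences. Grm6, the glutamate receptor that defines ON bipolar cells, was well above background with 1 of its 3 probes on 1 Isl1KO array and on no B4KO array. Of the 13 genes shared by bipolar types 9 were tested and 1 was called higher, against 15.9% of all tested genes. This was Lhx4 (0.46 ± 0.12 SE, adjusted p = 0.031), a call lost in 8 of the omissions of a day or sample (adjusted p up to 0.151). Cabp5, a calcium sensor of bipolar cells, was at 5.19, 4.71 and 5.05 in Isl1KO and at 4.75, 4.52 and 4.74 in B4KO (0.31 ± 0.14 SE, adjusted p = 0.149).

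OFF bipolar genes included 4 calls, all higher, among 9 tested of 12 listed, against 15.9% of all tested genes called higher, and the median of the list was 0.06. Grik1, the kainate receptor of OFF bipolar cells, had levels of 3.33, 3.67 and 3.35 in Isl1KO, of 2.17, 2.49 and 2.40 in B4KO and of 3.27, 3.42 and 3.22 in WT. The difference was nearly the same on each day, and WT was at the level of Isl1KO. It was 1.10 ± 0.08 (SE; adjusted p = 0.000163). The neuregulin receptor Erbb4 (1.03), the synaptic vesicle protein Syt2 (0.96) and the kainate receptor partner Neto1 (0.86) showed the same arrangement, with WT 0.98, 1.0 and 0.72 above B4KO. None had agreeing probes, and for Neto1 the mean of its passing probes gave 0.27 (adjusted p = 0.508). Vsx1, the factor that defines OFF cone bipolar cells, was not well above background on any array with either probe.

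Photoreceptor genes had higher values in Isl1KO at DD23 than on the earlier days relative to B4KO. The median over 10 tested cone genes was -0.40, -0.27 and 0.43 at DD10, DD16 and DD23, that over 15 tested genes shared by photoreceptors -0.05, -0.09 and 0.30, and that over 8 tested rod genes 0.38, 0.15 and 0.73. The median of all tested genes was -0.03, -0.03 and -0.02 on the same days. Opn1sw, the short-wave cone opsin, was at -4.60, -1.89 and 4.84 in Isl1KO, at -3.40, -1.59 and 3.68 in B4KO and at -4.16, -2.01 and 4.44 in WT. Pdc, phosducin, was at -5.03, 2.65 and 5.57 in Isl1KO and at -3.38, 3.08 and 4.84 in B4KO. Rcvrn, the calcium sensor recoverin, was at 1.98 in Isl1KO, 0.76 in B4KO and 1.03 in WT at DD23. At single days each value is 1 sample, and no departure at DD23 was called for any of the 19260 genes (limma, 0 at an adjusted p under 0.05, 1020 at an unadjusted p under 0.05). That fit leaves fewer residual degrees of freedom than the 4 of the main fit. Even the departure of -4.22 ± 0.34 (SE) in Slc18a3 had an adjusted p of 0.575, so the lack of calls does not show a lack of change.

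The photoreceptor genes that were called were all higher in Isl1KO, 3 of 8 rod genes, 1 of 10 cone genes and 4 of 15 shared genes, against 15.9% of all tested genes. WT lay nearer to Isl1KO than to B4KO in 2 of the 3 rod calls, in the cone call and in all 4 shared calls. Cnga1 and Cngb1, the subunits of the rod channel, were 0.74 ± 0.07 and 0.73 ± 0.08 (SE) higher in Isl1KO, the cone channel gene Cnga3 was 0.84 ± 0.07 higher, and the retinol dehydrogenase gene Rdh12 was 0.93 ± 0.07 higher (adjusted p = 0.000393, 0.000693, 0.000237 and 0.000134). Cnga3 was at -0.20, 0.09 and -0.12 in Isl1KO, at -0.97, -0.86 and -0.93 in B4KO and at -0.19, -0.05 and -0.13 in WT. Its level hardly changed over the days in any line, unlike that of Opn1sw or Pdc. Tulp1, needed for transport into the outer segment, was called higher as well (1.20 ± 0.22 SE, adjusted p = 0.0076, WT 1.12 above B4KO), as were Impg1, Guca1b and Sag (0.47, 0.42 and 0.62). Sag, rod arrestin, differed by 0.59, 0.45 and 0.83 on the 3 days and Tulp1 by 1.71, 0.54 and 1.35. The Tulp1 call was lost without DD23 (adjusted p = 0.0890), and those of Impg1, Guca1b and Sag without DD16 or DD23 (0.0530 to 0.137). Without DD10 the calls of Guca1b and Sag were lost too (adjusted p = 0.0575 and 0.0686). All 8 of these genes had 1 passing probe. With a filter of 3 of 9 arrays a brighter Tulp1 probe was taken, and it gave 0.39 (adjusted p = 0.449).

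**Figure D4:**
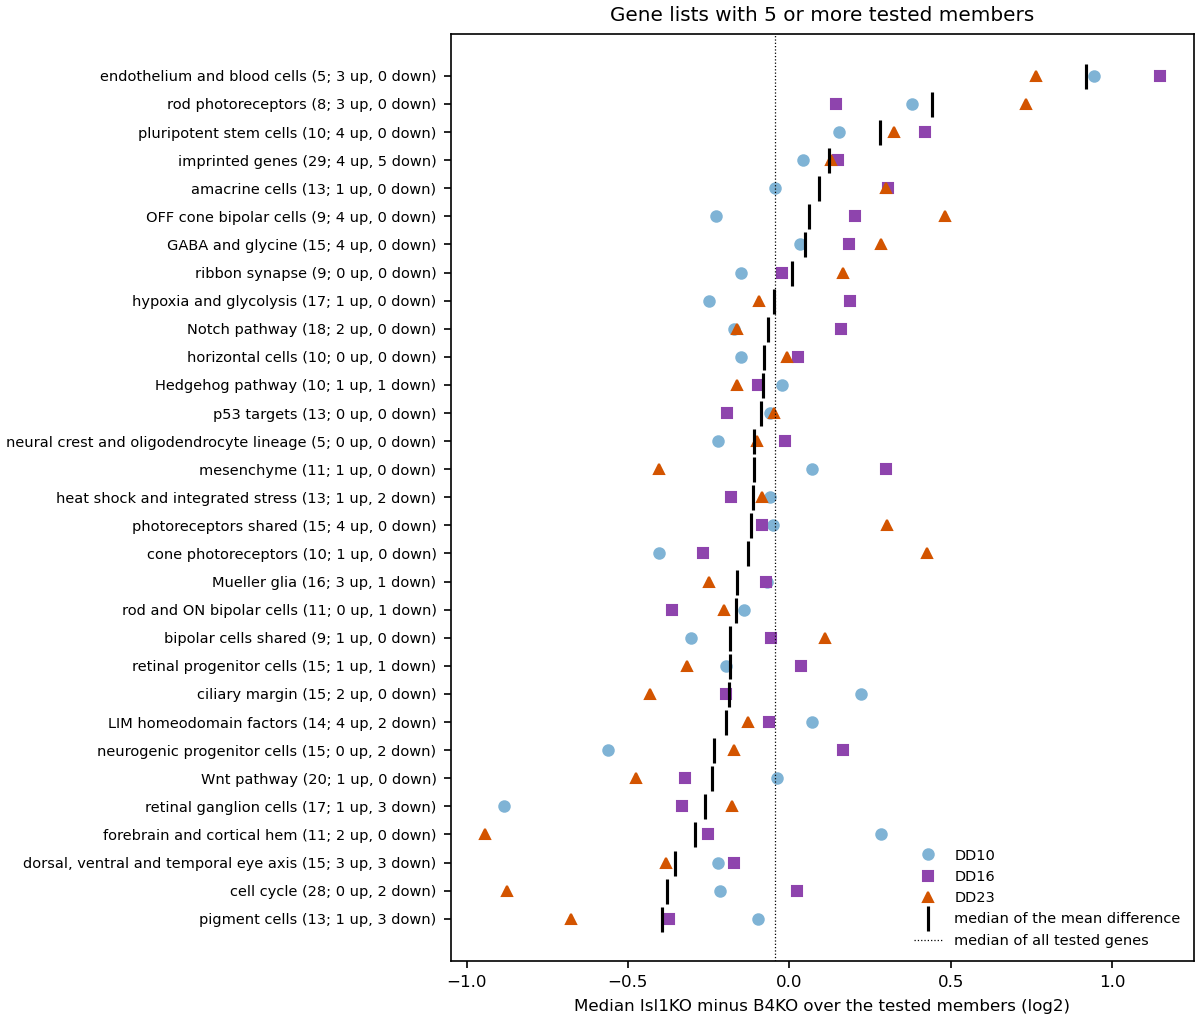
Median difference over the tested members of each list with 5 or more of them (log2, horizontal), at each day and for the mean over days (black bars), with the number of tested members and of members called higher and lower in brackets. Cone genes move from -0.40 at DD10 to 0.43 at DD23 and cell cycle genes reach -0.87 at DD23, and the dotted line marks the median of all tested genes at -0.05.

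Few amacrine and horizontal cell genes were called, against 21.7% of all tested genes, and glial genes were called in both directions. Of 15 amacrine genes 13 were tested, and Gad1, the GABA-synthesising enzyme, was called higher (0.73 ± 0.06 SE, adjusted p = 0.000288) with WT 0.75 above B4KO, its other probe bringing the mean to 0.37 (adjusted p = 0.147). None of the 10 tested horizontal cell genes and none of the 9 tested ribbon synapse genes was called. For Onecut1, a horizontal cell and early ganglion cell factor, the levels were 1.83, 3.1 and 2.39 in Isl1KO and 2.74, 3.18 and 2.48 in B4KO (adjusted p = 0.319). Of 19 genes of Mueller glia, the radial glia of the retina, 16 were tested, with a median of -0.16. Of these 3 rose, Hes1 among them, and 1 fell, against 15.9% and 5.87% of all tested genes. The fall was in Id3 (-0.59), a call lost without DD16 or DD23 (adjusted p = 0.146 and 0.147). Notch1 rose by 1.5 ± 0.22 (SE; adjusted p = 0.00266) with WT 1.37 above B4KO, and the mean of its passing probes gave 0.49 (adjusted p = 0.0514). The water channel gene Aqp4 rose by 0.74 ± 0.10 (SE; adjusted p = 0.00165), but after normexp background correction its difference was -0.10. Glul, Slc1a3, Rlbp1 and Apoe, the more familiar glial genes, differed by -0.14, -0.05, 0.002 and -0.02, and none passed the test.

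The other large rises with agreeing probes lay outside the lists of retinal cell types. Iqsec3, an exchange factor of inhibitory synapses, had levels of 3.09, 3.39 and 2.79 in Isl1KO, of 0.96, 1.35 and 0.69 in B4KO and of 2.49, 2.97 and 2.85 in WT (2.09 ± 0.14 SE, adjusted p = 0.000112). The second passing Iqsec3 probe gave only 0.34, and the mean of both 1.22. The kinase inhibitor gene Pkib was at 3.02, 2.45 and 1.70 in Isl1KO, at 1.47, 0.82 and 0.43 in B4KO and at 2.88, 2.44 and 1.82 in WT. On the tested probe of both genes Isl1KO was above B4KO on every day, and WT was close to Isl1KO. The other passing Pkib probes gave 1.79 and 0.15, the latter with a difference of -0.40 at DD10. Ly6g6c, Zfp600, Rufy2, the leukocyte tetraspanin gene Cd37, the keratin gene Krt16, Fam13c, Dera, the lymphoid factor Ikzf3 and the RNA gene Snhg15 followed, with differences of 1.78 to 1.12. WT was above B4KO in each of these 9, by 1.94 for Zfp600 and by 1.02 for Snhg15. With the mean of probes Rufy2, Fam13c and Zfp600 differed by 0.84, 0.57 and 1.13. Zfp600 belongs to a zinc finger family with near-identical members, so its value is uncertain.

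**Figure D5:**
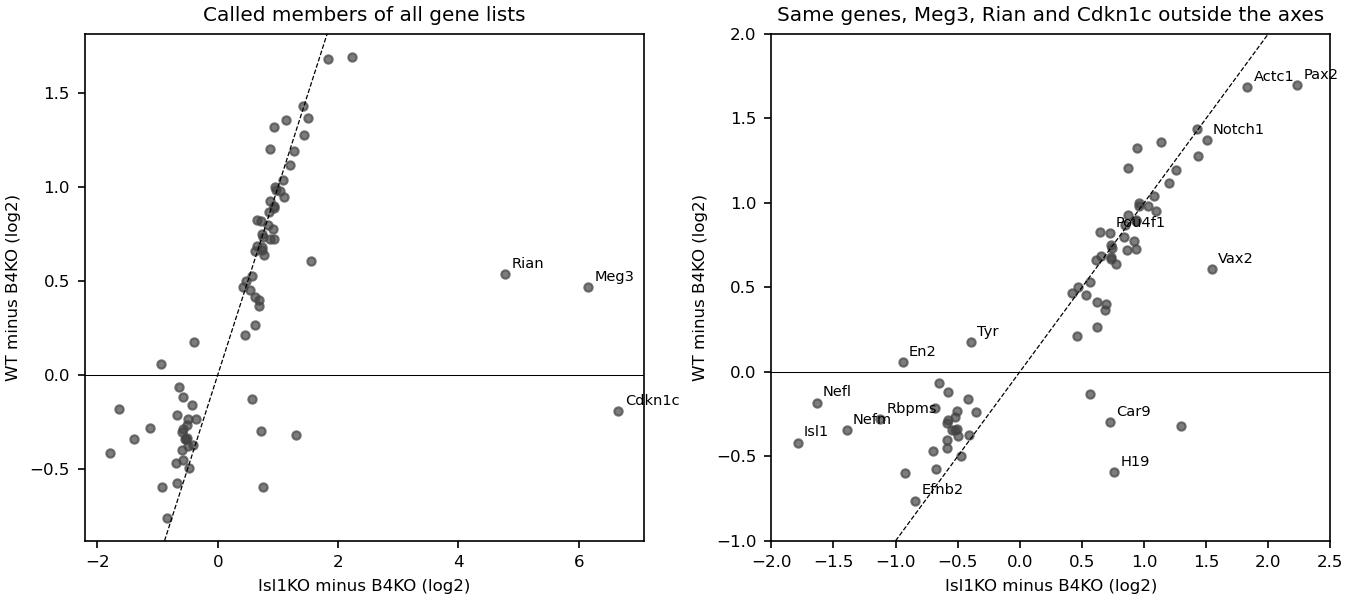
WT minus B4KO (log2, vertical) against Isl1KO minus B4KO (log2, horizontal) for each called member of the gene lists, on the full range (left) and without Meg3, Rian and Cdkn1c (right). Both axes contain the same B4KO arrays. Genes on the dashed line have WT at the level of Isl1KO, and genes near the horizontal line, such as Nefl, Rian and Cdkn1c, have WT near B4KO.

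The remaining large falls with agreeing probes were Grb10, Arhgef10, Slc4a5, Timp3, Igfbpl1, Gprc5b and Psd, with differences of -0.93 to -0.70. WT minus B4KO was -0.60 for Grb10, -0.51 for Arhgef10 and -0.50 for Gprc5b, so that WT was nearer to Isl1KO in each. For Slc4a5 and Psd it was -0.27 and -0.29, and WT was nearer to B4KO. Timp3, a metalloproteinase inhibitor secreted by the pigment epithelium, had levels of -0.26, 0.76 and 0.39 in Isl1KO, of 0.15, 1.68 and 1.66 in B4KO and of 0.37, 1.10 and 0.56 in WT (-0.87 ± 0.22 SE, adjusted p = 0.0316). Igfbpl1, a secreted binding-protein-like factor of young retinal neurons, was at 1.08, 0.79 and -0.54 in Isl1KO, at 1.76, 1.5 and 0.51 in B4KO and at 2.20, 1.37 and -0.02 in WT (-0.82 ± 0.17 SE, adjusted p = 0.0142). Isl1KO was the lowest line on each day in both genes. The call of Grb10, Slc4a5, Timp3, Igfbpl1 and Psd was each lost without DD16, without DD23 or without single knockout samples of those days (adjusted p up to 0.134, 0.199, 0.195, 0.102 and 0.115). Arhgef10 was lost without DD16 (0.0729) and without DD23 (0.0562), fell to a difference of -0.31 with normexp (0.0617), and its second passing probe gave -0.30 beside -0.88.

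Genes above background in 1 knockout fell almost entirely on the Isl1KO side. In 992 of the 37257 genes on the array a probe was well above background on all 3 Isl1KO arrays and no probe on any B4KO array, and in 2 genes the reverse held. The lowest signal well above background was -5.40 to -5.15 on the Isl1KO arrays and -4.85 to -4.59 on the B4KO arrays. On the WT arrays it was -4.98 to -4.21, so dim genes were harder to detect there than in Isl1KO. The part of this threshold in the counts was not tested. Among the 992, WT was well above background on all 3 arrays in 164 and on none in 120. For 118 of the 992 and for the 2 of B4KO the lower bound of the fold reached 2. WT was well above background on all 3 arrays in 87 of the 118 and on none in 4. Nap1l5, an imprinted gene of the nucleosome assembly family, had levels of -0.77, -0.31 and 0.29 in Isl1KO and of -7.06, -6.80 and -6.90 in B4KO, at least 21.9-fold higher. Its levels in WT were -6.68, -2.95 and -4.96, well above background on 1 array. Bex6 was at least 6.99-fold higher in Isl1KO, with WT at the same mean level of -1.90 as the -1.91 of Isl1KO. Nlrp1b, an inflammasome sensor, was well above background only in B4KO, with levels of -3.36, -3.56 and -2.63 there, of -7.49, -7.42 and -7.67 in Isl1KO and of -6.78, -6.49 and -7.25 in WT, at least 4.22-fold higher in B4KO.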

How the data were processed

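RNA of 9 organoid samples, each on 1 single-colour array, was hybridised, and per the submitters' processing notes the scans were quantified in Agilent Feature Extraction (version 12.0.3.1). Per the file headers, the deposited scanner files hold intensity per spot, already background-subtracted and detrended and not normalised between arrays. The authors' value table, also deposited, holds the same values as a ratio to each array's 75th percentile, as comparison with the scanner values showed.

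Log2 intensity minus the array's 75th percentile was computed here from the deposited intensity, spots with outlier flags left out (102 of 56605 probes were lost), and spots of 1 probe were averaged. Names came from the RefSeq accession for 33881 probes and from the file for 22724. The brightest probe of a gene that was well above background on all 6 knockout arrays was tested in limma 3.58.1 (R 4.3.3) with line and day as additive terms over all 9 arrays, with Benjamini-Hochberg adjustment over all 19260 genes and a threshold of 0.05. A second fit tested the departure at DD23. Both were tested on simulated data.

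Named genes were the targeted genes, the 12 largest differences in each direction with agreeing probes, the 6 largest bounds in each direction of genes above background in 1 knockout, a panel of 54 retinal and imprinted genes, and the leading called members of the lists described. Further members of these lists, and genes marked as such, were added after their values were seen. Some genes that the rule names are not reported here. The members, the panel and the 37 gene lists were chosen with earlier results of these data known. A bound on a fold sets the bright line's mean against the higher of the dim probe's own value and the lowest signal well above background on each array. Alternatives covered the normalisation, the background correction, the probe and filter, the arrays fitted, the deposited table and the omission of days and arrays. With 9 arrays, the main fit has 4 residual degrees of freedom and the DD23 fit fewer, which limits the precision.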

Additional observations from a re-analysis of the deposited data

How the results depend on the processing

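The count of 4187 genes called between the knockouts stayed within 1.5 times under quantile normalisation, cyclic loess, normexp, the mean of probes, the looser filter, no filter, the 6 knockout arrays alone and the deposited table (3677 to 5149). It was 2444 among probes brighter than the median, where fewer genes were tested, 2323 without DD16 and 2604 without DD23. The 324 genes with agreeing probes became 171, 113 and 136 under the same settings. Without single arrays the counts were 2791 to 3457 and 183 to 306. The 992 genes above background only in Isl1KO became 1687, and the 2 of B4KO became 8, when 1 array of the other line was allowed, and the latter was 1 when every probe had to pass. The 3 genes that turned direction were Aqp4 (-0.10 with normexp), Pou4f1 (-0.64) and Dct (0.15), the latter pair with the mean of probes. The cause was not tested. The departure at DD23 gave no call under any of the 8 settings run, in a fit with too few residual degrees of freedom to exclude a change. Slide as a block could not be fitted for the knockouts, since each line lies on 1 slide. The day term pairs the lines by day in every fit, and labels carry no replicate numbers. Of the genes on the array, those not well above background on all 6 arrays have no measured difference here.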

Other observations

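Genes of cells that a retinal organoid might hold beside retina were read in the same fit, and most of their calls were rises in which WT also stood above B4KO. Of 12 listed genes of endothelium and blood cells, 5 were tested and 3 rose (15.9% of all tested genes rose). Ptprc, the leukocyte antigen CD45, had levels of 3.24, 3.35 and 3.66 in Isl1KO, of 1.99, 2.20 and 2.28 in B4KO and of 3.21, 3.28 and 3.55 in WT (1.26 ± 0.07 SE, adjusted p = 8.00e-05, limma with Benjamini-Hochberg adjustment). Csf1r, the macrophage growth factor receptor, differed by 0.92 and WT was 0.78 above B4KO. Of 13 genes of pluripotent stem cells 10 were tested and 4 rose, among them Tdgf1 (1.08, WT 1.04 above B4KO) and Pou5f1 (0.77, WT 0.64 above B4KO). In each of these genes Isl1KO was above B4KO on every day, and all 4187 called genes kept 1 sign over the days. WT lay nearer to Isl1KO in each, as it did in 91.5% of all called genes. The part of slide in these differences was not tested, since line and slide cannot be told apart.

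In some genes WT lay nearer to B4KO. En2, a homeobox factor of the midbrain and hindbrain, had levels of -2.28, -1.82 and -2.33 in Isl1KO, of -0.92, -1.28 and -1.39 in B4KO and of -1.02, -1.35 and -1.06 in WT (-0.94 ± 0.18 SE, adjusted p = 0.00957). Without DD10 or DD23 the En2 adjusted p was 0.0673 and 0.0667. Car9, a hypoxia-responsive carbonic anhydrase, was at -1.50, -0.83 and -1.68 in Isl1KO, at -2.44, -1.72 and -2.03 in B4KO and at -2.78, -2.07 and -2.24 in WT (0.73 ± 0.15 SE, adjusted p = 0.0126). It was the only call among 17 tested genes of hypoxia and glycolysis, against 21.7% of all tested genes. The median difference of that list was -0.05, and without DD10 or DD16 the Car9 adjusted p was 0.0825 and 0.129. Chac1, which responds to amino acid and endoplasmic reticulum stress, was lower by the fit (-0.68 ± 0.09 SE, adjusted p = 0.00179), with a difference of WT minus B4KO of -0.22.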
